A study of Mus musculus with 7 samples.

Results

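Neurexins, neuroligins and leucine-rich repeat transmembrane neuronal proteins (LRRTMs) are cell adhesion proteins that join the presynaptic and postsynaptic membranes. The 9 genes described here are Nrxn2, Nrxn3, Nlgn1, Nlgn2, Nlgn3, Lrrtm1, Lrrtm2, Lrrtm3 and Lrrtm4, taken by symbol from 36666 genes in the gene table. Their exons are the 78 rows that carry these symbols among 86425 rows of the exon table. Nrxn2 and Nrxn3 have 25 exon rows each, Nlgn1 and Nlgn2 8 each, Nlgn3 7, Lrrtm1 3 and Lrrtm2 2, while Lrrtm3 and Lrrtm4 have 0.

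The samples were cerebral cortex from C57BL/6 mice, with 4 samples taken at embryonic day 17 and 3 from young adults whose age in days the labels do not state. No treatment or engineered allele is named for either group. Polyadenylated RNA was sequenced, and the 2 ages are the comparison that the design sets up. Since the labels do not tie each sample to its own animal, the spread between samples of a group may be technical. The p-values set the age difference only against that spread.

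Neurexins sit mainly on the presynaptic side and bind neuroligins and LRRTMs on the postsynaptic side. Each neurexin gene has an upstream promoter for the long alpha form and an internal promoter for the short beta form, and small exons at numbered splice sites are included or skipped. The insert at splice site 4 is known to change which partners a neurexin binds: LRRTMs bind neurexins that lack it, while many neuroligin forms bind with or without it. Nlgn1 is known chiefly from excitatory synapses and Nlgn2 from inhibitory synapses, and Nlgn3 is found at both. LRRTMs act mainly at excitatory synapses.

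The exon sequences on which the splicing results turn are shown in capitals, 5′ to 3′ on the gene's strand. The 15 lower-case bases on each side are the adjoining exons of a GENCODE transcript, not intron. The coordinates are GRCm38, all are internal coding exons, and the deposited exon rows were placed by their mm9 starts. The Nrxn3 exon at splice site 6 is on the plus strand at chr12:89517906-89517932. It is shown because it had the largest gain among the member exons relative to its embryonic share.
Nrxn3 splice site 6: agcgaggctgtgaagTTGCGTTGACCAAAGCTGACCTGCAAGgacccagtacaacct
The 30-base Nrxn3 exon at splice site 1 is at chr12:88850279-88850308 on the plus strand, and it lost the largest part of its share.
Nrxn3 splice site 1: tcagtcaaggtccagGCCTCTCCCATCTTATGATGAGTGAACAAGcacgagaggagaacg
The Nrxn3 exon at splice site 4, which bears on partner choice, is at chr12:90199147-90199236 on the plus strand.
Nrxn3 splice site 4: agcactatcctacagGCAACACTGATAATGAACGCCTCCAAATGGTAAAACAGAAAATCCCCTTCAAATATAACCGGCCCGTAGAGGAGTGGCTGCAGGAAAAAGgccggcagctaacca
The Nlgn2 exon at splice site A, at chr11:69830563-69830613 on the minus strand, is the neuroligin exon of this kind that passed the exon test.
Nlgn2 splice site A: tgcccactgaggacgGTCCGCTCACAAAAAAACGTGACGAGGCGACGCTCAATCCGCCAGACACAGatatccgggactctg

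The recovered reads in genes numbered 18444802 to 22576758 in the embryonic samples and 22734515 to 23606803 in the adult samples. The level of a gene is its reads per 1000000 recovered reads of the sample (CPM), and differences are adult minus embryonic on the deposited log2-like scale. Markers of mature neurons, glia and vessels were higher in the adult samples. The summed CPM of the 5 oligodendrocyte markers ran from 48.2 to 51.2 in the embryonic samples and from 3700.1 to 6609 in the adult ones, and 5 of the 5 rose. All 7 astrocyte markers rose (summed CPM 286 to 306 against 4449 to 5383), as did 4 of 4 oligodendrocyte precursor markers (70.3 to 73.6 against 212 to 290.0), 5 of 5 microglial markers (21.9 to 26.0 against 227 to 245) and 3 of 4 endothelial markers (63.1 to 72.9 against 176 to 182). Of the 7 neuronal markers found by symbol, 5 rose and 1 fell, with sums of 2507 to 2689.7 against 5917 to 6177. Progenitor markers fell in 5 of 6 cases (448 to 630.2 against 61.1 to 93.5), and erythroid markers fell in 2 of 3 (535 to 805 against 196 to 500.0). Markers of regions next to the cortex also rose: choroid plexus 4 of 4 (0.651 to 1.20 against 583 to 717), striatum 5 of 5 (72.6 to 80.0 against 654 to 759.6) and thalamus or hypothalamus 4 of 5 (40.6 to 46.9 against 89.3 to 156). For comparison, 35.8% of all tested genes were called higher in adult cortex and 33.9% lower. No marker was at 0 in all samples of a group. In bulk tissue, more cells of a type and more RNA per cell cannot be told apart, and the part of these cell and tissue differences in the results below was not tested.

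Of the 9 genes, 7 were higher in the adult cortex, 0 were lower and 2 did not pass the test at an adjusted p under 0.05 (limma, Benjamini-Hochberg over 22828 genes). Across all tested genes, 35.8% were called higher, 33.9% lower and 69.7% either way. The deposited values of 6 of the 9 did not overlap between the ages, all with adult higher, against 68.9% of all tested genes in either direction and 35.7% with adult higher. The median difference was 0.58 over the 9 genes and 0.03 over all tested genes. The largest differences were those of Lrrtm3 and Nrxn3. Scaling each sample to its own median moved the median difference of all genes to -0.16 and left 5 of the 9 genes called higher and 1, Nlgn2, called lower, against 30.7% and 39.6% of all tested genes.

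**Figure D1:**
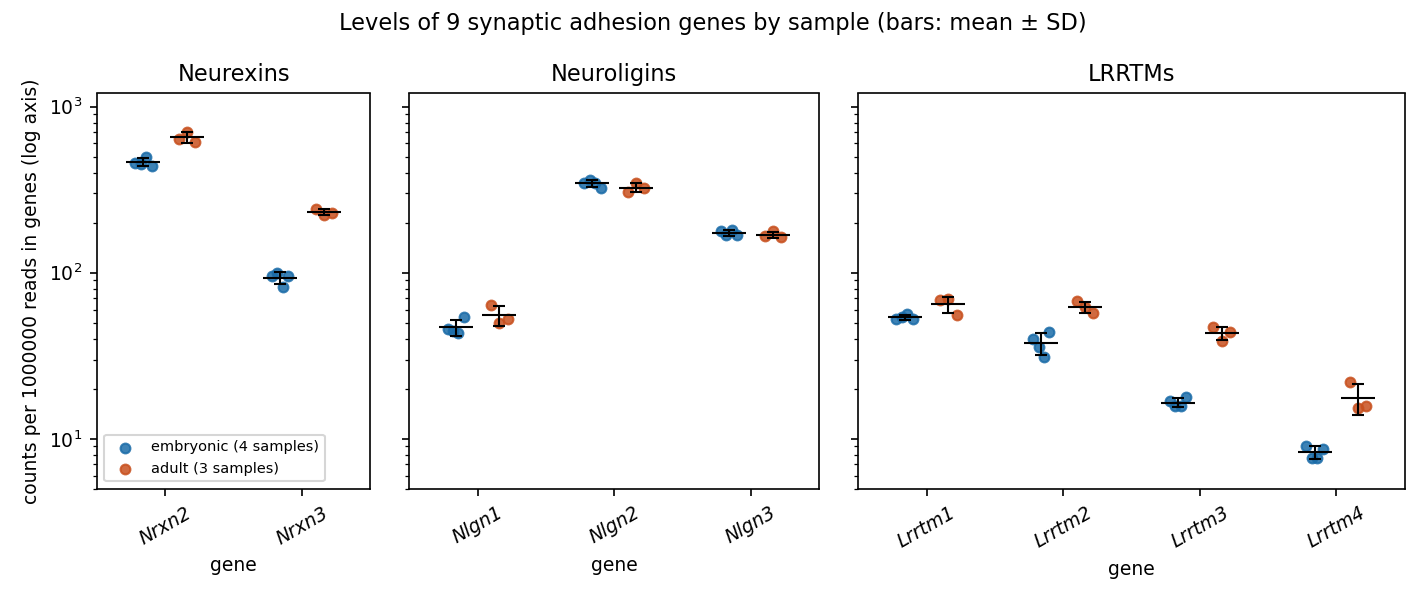
Counts per 1000000 reads in genes (log axis) for each gene, with 1 point per sample, 4 embryonic in blue and 3 adult in orange, and bars for mean ± SD. Nrxn2, Nrxn3, Lrrtm2, Lrrtm3 and Lrrtm4 have separate groups of points, while those of Nlgn1, Nlgn2, Nlgn3 and Lrrtm1 overlap.

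Both neurexins rose, and the difference between their changes did not pass its own test (log2 ratio of Nrxn2 to Nrxn3, exact permutation adjusted p = 0.0571). The ratios did not overlap between the ages, and the unadjusted p of 0.0286 is the smallest that this test can give. The failure therefore does not show equal change. Nrxn2 (ENSMUSG00000033768.17, GRCm38 chr19:6418731-6544169) stood at 459.9, 452, 499 and 441 CPM in the embryonic samples and at 643, 706 and 609 CPM in the adult ones. Every adult sample was above every embryonic one. The mean went from 463 ± 24.9 (SD, n = 4) to 652 ± 49.3 CPM (SD, n = 3), a difference of 0.58 (SE 0.079, limma adjusted p = 1.52e-05). Nrxn3 (ENSMUSG00000066392.11, GRCm38 chr12:88722876-90334935) stood at 96.0, 99.3, 81.7 and 96.2 CPM in embryonic cortex and at 242, 223 and 230.2 CPM in adult cortex. The groups were far apart, at 93.3 ± 7.87 (SD, n = 4) against 232 ± 9.95 CPM (SD, n = 3). The ratio of the means was 2.48, and the difference was 1.39 (SE 0.080, limma adjusted p = 1.94e-09).

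Of the neuroligins, the postsynaptic receptors for neurexins, Nlgn1 was called higher, and Nlgn2 and Nlgn3 did not pass the test. Nlgn2 (ENSMUSG00000051790.15, GRCm38 chr11:69823122-69837784) stood at 347, 362, 346 and 326 CPM in the embryonic samples and 308, 347 and 323 CPM in the adult ones, and the groups overlapped. The means were 345 ± 14.9 (SD, n = 4) and 326 ± 20.1 CPM (SD, n = 3). The difference was 0.00 with a 95% interval of -0.16 to 0.16 (limma adjusted p = 0.986), and with samples scaled to their medians it was -0.18 (limma adjusted p = 0.0416). Nlgn3 (ENSMUSG00000031302.16, GRCm38 chrX:101299168-101325963) stood at 178, 168, 182 and 168 CPM against 166, 178 and 164 CPM, again overlapping. Its means were 174 ± 7.03 (SD, n = 4) and 169 ± 7.85 CPM (SD, n = 3). The difference was 0.04, with an interval of -0.11 to 0.20 (limma adjusted p = 0.598), and -0.14 with samples scaled to their medians.

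Nlgn1 (ENSMUSG00000063887.13, GRCm38 chr3:25426215-26332460) was the neuroligin that passed the test. Its levels were 45.8, 44.3, 43.2 and 54.4 CPM in embryonic cortex and 63.9, 49.8 and 52.7 CPM in adult cortex. Embryonic replicate 4 lay above adult replicates 2 and 3, so the groups overlapped. The means were 46.9 ± 5.11 (SD, n = 4) and 55.4 ± 7.44 CPM (SD, n = 3), with a difference of 0.32 (SE 0.10, limma adjusted p = 0.0123). The call was lost without adult replicate 1 (difference 0.22, limma adjusted p = 0.0777), which left 6 of the 9 genes higher against 33.0% of all tested genes, and with samples scaled to their medians (0.14, adjusted p = 0.248).

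All 4 LRRTMs, postsynaptic neurexin receptors of excitatory synapses, rose, with differences from 0.33 to 1.43. No ratio between a pair of them passed the test of unequal change (exact permutation adjusted p from 0.0571 to 0.0816). The ratios of the embryonic and adult samples nevertheless did not overlap for any LRRTM pair. The smallest p that 35 splits can give is 0.0286, which leaves little room to pass after adjustment over 10 pairs. Failing this test therefore does not show equal change. Lrrtm3 (ENSMUSG00000042846.8, GRCm38 chr10:63928472-64090277) stood at 16.9, 15.7, 15.7 and 17.7 CPM in embryonic cortex and at 47.0, 38.9 and 43.8 CPM in adult cortex. Its groups were well apart, at 16.5 ± 0.994 (SD, n = 4) against 43.2 ± 4.08 CPM (SD, n = 3). The ratio of means was 2.62 and the difference 1.43 (SE 0.090, limma adjusted p = 5.27e-09).

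Lrrtm4 (ENSMUSG00000052581.13, GRCm38 chr6:80018877-80810143) had the lowest level per kilobase of the 9 genes at both ages. It stood at 9.11, 7.71, 7.62 and 8.64 CPM, from 162 to 187 reads, in the embryonic samples and at 21.9, 15.3 and 15.8 CPM in the adult samples. All adult samples were higher, with adult replicate 1 above the other two. The means were 8.27 ± 0.725 (SD, n = 4) and 17.6 ± 3.66 CPM (SD, n = 3), with a difference of 1.10 (SE 0.13, limma adjusted p = 3.02e-06).

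Lrrtm2 (ENSMUSG00000071862.3) stood at 39.8, 35.8, 30.9 and 44.2 CPM in embryonic cortex and at 67.2, 61.8 and 57.0 CPM in adult cortex, without overlap. The means were 37.7 ± 5.70 (SD, n = 4) and 62.0 ± 5.10 CPM (SD, n = 3), with a difference of 0.80 (SE 0.11, limma adjusted p = 1.59e-05). Lrrtm2 lies within Ctnna1 on the opposite strand. The sources do not say whether strand was used in counting, so reads of the pair cannot be told apart. The same holds for the genes that overlap Nrxn2, Nrxn3, Nlgn1 and Lrrtm4 on the other strand, and Nlgn3 overlaps a gene on its own strand. Ctnna1, which encodes an alpha-catenin, stood at 78.8 ± 3.8 (SD, n = 4) and 81.2 ± 4.51 CPM (SD, n = 3), with a difference of 0.13 (limma adjusted p = 0.156).

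Lrrtm1 (ENSMUSG00000060780.2, GRCm38 chr6:77242689-77257791) had the smallest difference of the LRRTMs. It stood at 53.0, 53.9, 56.6 and 52.7 CPM in embryonic cortex and at 68.1, 69.3 and 55.7 CPM in adult cortex. Adult replicate 3 lay within the embryonic range of CPM, although the deposited values of the groups did not overlap. The means were 54.0 ± 1.77 (SD, n = 4) and 64.4 ± 7.52 CPM (SD, n = 3), with a difference of 0.33 (SE 0.089, limma adjusted p = 0.00481). With samples scaled to their medians it was 0.15 (limma adjusted p = 0.150).

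Per kilobase of annotated exon (GENCODE M21), Nlgn2 was the most abundant of the 9 genes at both ages, at 59.7 ± 2.58 CPM per kilobase (SD, n = 4) in embryonic and 56.3 ± 3.47 (SD, n = 3) in adult cortex. Nrxn2 came next, at 33.5 ± 1.80 (SD, n = 4) and 47.2 ± 3.57 CPM per kilobase (SD, n = 3). Without length scaling, Nrxn2 was above Nlgn2 at both ages (463 and 345 CPM in embryonic, 652 and 326 CPM in adult cortex). The order thus depends on the lengths of all annotated exons together (13.8 kilobases for Nrxn2, 5.79 for Nlgn2). These may differ from the lengths that were counted. In embryonic cortex the order went on with Nlgn3 (18.8) and Lrrtm1 (17.8), then Nrxn3 (7.40) and Lrrtm2 (6.26), then Lrrtm3 (3.88) and Nlgn1 (3.50), and last Lrrtm4 (1.35 CPM per kilobase). Samples of the genes within each of these 3 pairs overlapped, and every other pair of neighbours in the order was apart. In adult cortex Lrrtm1 (21.2), Nrxn3 (18.4) and Nlgn3 (18.2) overlapped as neighbours, as did Lrrtm2 (10.3) and Lrrtm3 (10.2), followed by Nlgn1 (4.13) and Lrrtm4 (2.87 CPM per kilobase). On this length-scaled measure, Nrxn3 thus stood below Nlgn3 and Lrrtm1 in embryonic cortex and beside them in adult cortex.

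The balance within the families was examined next. Nrxn3 made up 18.6, 19.4, 15.2 and 19.3% of the length-scaled sum of Nrxn2 and Nrxn3 in the embryonic samples and 29.2, 25.7 and 29.3% in the adult ones. The groups did not overlap (18.1 ± 1.96%, n = 4, against 28.1 ± 2.07%, n = 3; exact permutation p = 0.0286, adjusted p = 0.0514). Among the LRRTMs, Lrrtm1 went from 60.9 ± 3.34% (SD, n = 4) to 47.6 ± 3.09% (SD, n = 3), while Lrrtm3 went from 13.2 ± 0.444% (SD, n = 4) to 22.9 ± 2.44% (SD, n = 3). Lrrtm2 stood at 21.3 and 23.1%, and Lrrtm4 at 4.59 and 6.41%. The neuroligin shares overlapped between the ages, with Nlgn2 at 72.8 ± 1.18% (SD, n = 4) and 71.5 ± 1.21% (SD, n = 3), Nlgn3 at 22.9 and 23.2%, and Nlgn1 at 4.28 and 5.27%.

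None of the 9 shares passed an adjusted p of 0.05 by the two-sided exact permutation test, and 5 had an unadjusted p of 0.0286, the smallest that the exact test can give here. The shares of Nrxn2 and Nrxn3 sum to the whole, so their tests are 1 test counted under both names. The same held for the log2 ratios of pairs within a family, where 0 of 10 passed and 5 had that smallest p (adjusted p = 0.0571). Those 5 included Nrxn2 to Nrxn3, whose log2 ratio fell by 0.82 between the group means, and Lrrtm1 to Lrrtm3, where the difference was -1.14. For Lrrtm1 to Lrrtm4 it was -0.83, for Lrrtm2 to Lrrtm3 -0.66 and for Lrrtm3 to Lrrtm4 0.31. The pairs of neuroligins overlapped between the ages, with differences from -0.04 to 0.32.

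**Figure D2:**
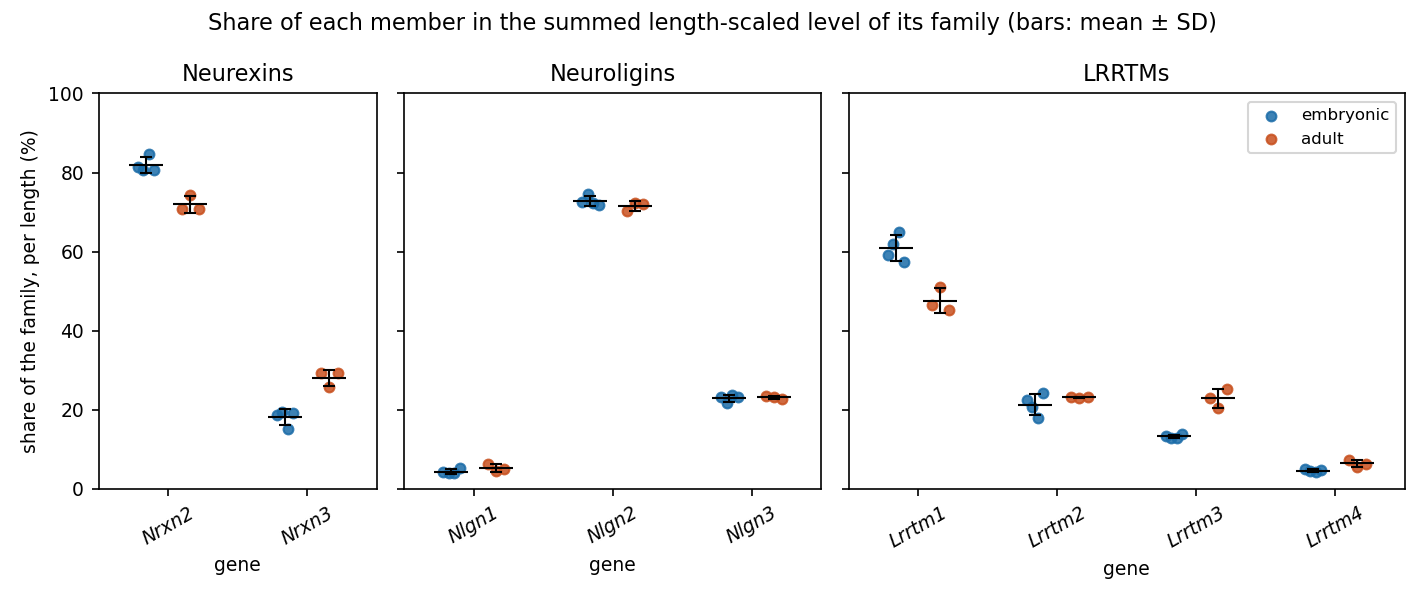
Share of each gene in the summed length-scaled level of its own family (percent), 1 point per sample, 4 embryonic in blue and 3 adult in orange, bars for mean ± SD. The neuroligin shares overlap between the ages, Nrxn3 lies at 18.1% and 28.1%, and Lrrtm3 at 13.2% and 22.9% on average.

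Exon usage was read as the percent of a gene's reads that fell in an exon. Of the 78 exon rows, 4 gained and 5 lost share in adult cortex (limma diffSplice, adjusted p under 0.05 over 86181 exons). Across all tested exons, 2.68% gained, 2.17% lost and 4.86% were called either way, against 11.5% of the 78. Groups did not overlap for 17 of the 78 rows (21.8%) and for 9.92% of all tested exons. These rows share 7 genes and are not independent. The diffSplice test assumes 1 spread for all exons of a gene. In simulated data with a spread of its own for each exon it made 467 false calls, against 1 for a limma test per exon. The diffSplice test also recovered more of the changed exons. The limma test per exon kept 1 of the 9 exons, that of Nrxn3 at splice site 6, which held at most 1 read in every embryonic sample (below). It called 1.03% of all exons as gains and 0.951% as losses. The counts also moved with single libraries, as did those over all exons. Without adult replicate 3 there were 6 gains and 8 losses (4.2% and 3.69% of all exons). Without adult replicate 2 there were 2 and 3 (1.64% and 1.55%), and without embryonic replicate 2 there were 3 and 3 (2.1% and 1.58%).

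The Nrxn3 exon at splice site 6, printed above, is a 27-base exon between exons of 174 and 120 bases (mm9 start 90756350). It held at most 1 read in each of the 4 embryonic samples, out of 1737 to 2242 Nrxn3 reads. In the adult samples it held about 14, 30 and 36 reads of 5553, 5254 and 5234. As shares these are at most 0.0565, 0.0446, 0.0576 and 0.0481% in embryonic and 0.252, 0.571 and 0.690% in adult cortex, with adult replicate 1 the lowest of its group. The groups were apart by diffSplice (adjusted p = 2.51e-08) and by limma per exon (adjusted p = 0.0161). The deposited exon values give no read and 1 read the same number, so no fold is given. All 4 embryonic values are thus set by the Nrxn3 reads of the sample. Their spread, which enters both p-values, is not a spread of exon usage, so the p-values may be too small. Counted only over exons of genes above a minimum number of reads in every sample, 167 exons held at most 1 read in every embryonic sample. In every adult sample, 38 did.

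Relative to the mean of its 2 neighbouring rows, the splice site 6 exon stood at no more than 0.0386, 0.0193, 0.0288 and 0.0270 in the embryonic samples and at 0.156, 0.300 and 0.348 in the adult ones. Its 174-base neighbour held 2.23 and 2.16% and its 120-base neighbour 1.55 and 1.51% of the reads at the 2 ages, differences within the SD of either group. By the two-sided exact permutation test p was 0.0286, the smallest possible, and 0.171 after adjustment over the 12 splice-site exons.

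The 30-base Nrxn3 exon at splice site 1 (mm9 start 90088723) went the other way. It held 0.565, 0.535, 0.345 and 0.337% of Nrxn3 reads in the embryonic samples and 0.0540, 0.133 and 0.153% in the adult ones, from 6 to 12 and 3 to 8 reads. The means were 0.445 ± 0.121% (SD, n = 4) and 0.113 ± 0.0523% (SD, n = 3), apart by diffSplice (adjusted p = 7.19e-06) but not by limma per exon (adjusted p = 0.0776). Relative to its neighbouring rows it stood at 0.0728 ± 0.0104 (SD, n = 4) and 0.0287 ± 0.0118 (SD, n = 3), without overlap (exact permutation p = 0.0286, adjusted p = 0.171). One of those rows held at most 9 reads in any sample, so the ratio rests almost wholly on the other, a 1390-base exon that was itself called as losing share (below).

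The Nrxn3 exon at splice site 4 did not pass either test. This 90-base exon (mm9 start 91437587) held 1.36 ± 0.220% (SD, n = 4) of the gene's reads in embryonic and 1.24 ± 0.277% (SD, n = 3) in adult cortex (diffSplice adjusted p = 0.641). Relative to its neighbouring rows it stood at 0.415, 0.361, 0.268 and 0.310 against 0.208, 0.276 and 0.223, where 1 adult sample was above the lowest embryonic one (exact permutation p = 0.0857, adjusted p = 0.206).

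**Figure D3:**
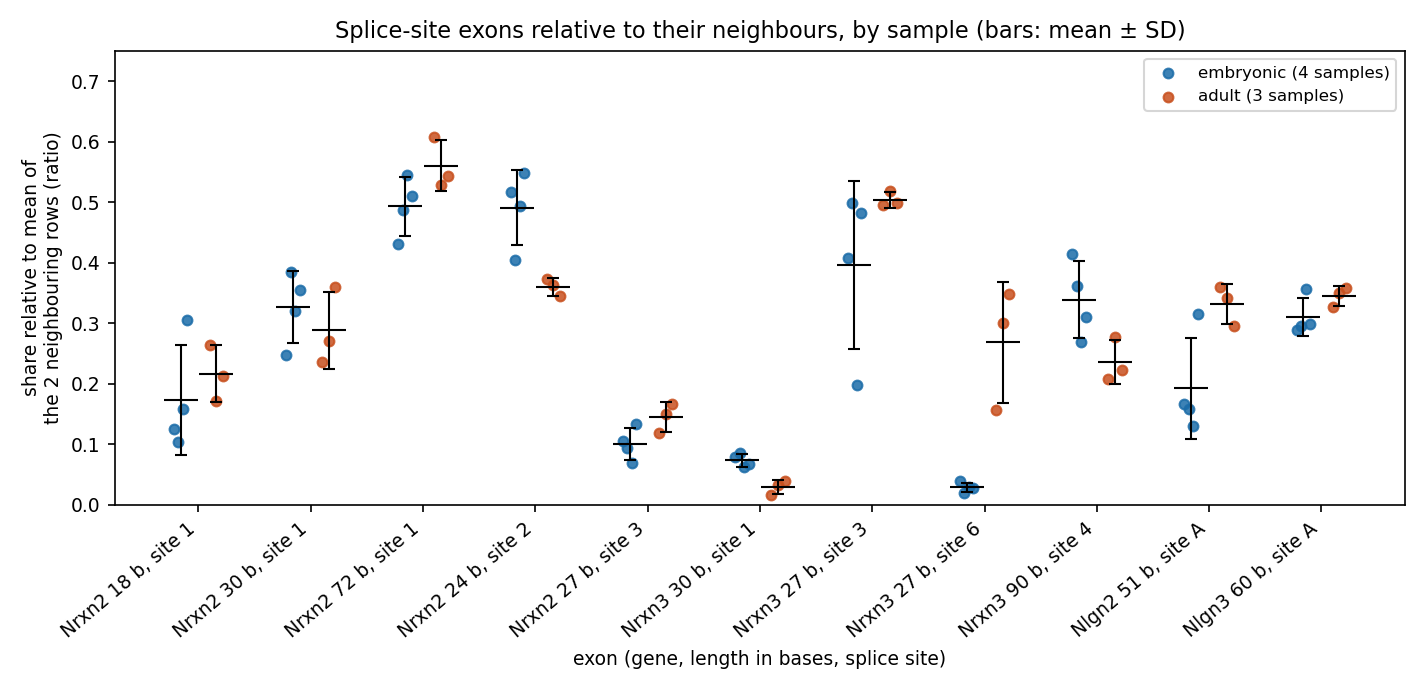
Share of each of 11 splice-site exons divided by the mean share of its 2 neighbouring rows, 1 point per sample, 4 embryonic in blue and 3 adult in orange, bars for mean ± SD. Neighbouring rows of the Nrxn2 site 1 exons include other site 1 exons. A 710-base row matched to no coding transcript borders the 72-base and site 2 exons of Nrxn2. The Nrxn3 exon at site 6 is the highest gain, from at most 0.0284 to 0.268 on average (its embryonic points are upper bounds), and the groups of the Nrxn3 exon at site 4 overlap.

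At splice site 2 the 24-base Nrxn2 exon (mm9 start 6463824) held 1.82, 1.45, 1.47 and 1.85% of Nrxn2 reads in embryonic and 0.847, 0.893 and 0.990% in adult cortex, without overlap. The diffSplice adjusted p was 0.0484. The call was lost on leaving out any 1 of the samples other than adult replicate 3 (adjusted p from 0.0653 to 0.166), and with limma per exon (adjusted p = 0.0563). Per base, the row held 10.2 times the level of flanking exons in embryonic cortex and 7.03 times in adult cortex, and a version of 45 bases is annotated. Relative to its neighbours it stood at 0.490 ± 0.0621 (SD, n = 4) and 0.360 ± 0.0143 (SD, n = 3; exact permutation p = 0.0571, adjusted p = 0.206). The upstream neighbour is a 710-base row matched to no coding transcript.

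The splice site 3 exons of Nrxn2 and Nrxn3 and the splice site 1 exons of Nrxn2 did not pass either test. At splice site 3, the 27-base exon of Nrxn3 held 0.784 and 1.05% of the reads and that of Nrxn2 0.340 and 0.358% in embryonic and adult cortex. The splice site 1 exons of Nrxn2, of 18, 30 and 72 bases, held 0.306 and 0.353%, 0.258 and 0.204%, and 1.25 and 1.05%. Over the 12 splice-site exons, 0 passed an adjusted p of 0.05 in the exact permutation test of the ratio to neighbouring rows, and 2 had an unadjusted p under 0.05. Those 2 had the smallest p that the test can give (0.0286), which became 0.171 after adjustment over 12 exons. With so few splits, failing this test does not show unchanged inclusion. The 12 splice-site exons were taken as internal coding exons of at most 90 bases with a length that is a multiple of 3. That rule, and the roles of the alpha and beta exons below, were set after the values were seen. A junction read may count for each exon it touches, so a value per base depends on exon length, and ratios per base are read here only between the ages.

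Away from the splice sites, the beta first exon of Nrxn3 (1158 bases, mm9 start 91050923) gained share. It held 1.19, 1.08, 1.72 and 1.49% of the reads in embryonic and 2.78, 2.50 and 2.13% in adult cortex, without overlap (means 1.37 ± 0.294%, n = 4, and 2.47 ± 0.326%, n = 3; diffSplice adjusted p = 0.00118, limma per exon adjusted p = 0.0856). The call was lost without adult replicate 1 (adjusted p = 0.0544). The 1390-base exon near the 5′ end of Nrxn3 (mm9 start 90032948), an alpha exon, held 14.3, 12.5, 11.1 and 10% against 6.67, 8.33 and 7.69% (means 12 ± 1.85%, n = 4, and 7.56 ± 0.841%, n = 3; diffSplice adjusted p = 0.00162, limma per exon adjusted p = 0.0690). The beta first exon of Nrxn2 held 5.14 ± 0.251% (SD, n = 4) and 5.59 ± 0.570% (SD, n = 3) and was not called (diffSplice adjusted p = 0.191).

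A 204-base alpha exon of Nrxn2 (mm9 start 6481672) lost share, from 4.17, 5.56, 4.55 and 4.55% to 2.08, 2.38 and 4.0%. Adult replicate 3 lay just below the lowest embryonic sample. The means were 4.70 ± 0.596% (SD, n = 4) and 2.82 ± 1.03% (SD, n = 3; diffSplice adjusted p = 2.89e-05, limma per exon adjusted p = 0.190).

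The exons that only the alpha forms use were also set against those that alpha and beta forms share, as percent of gene reads per 100 bases. In Nrxn2 the ratio of alpha to shared internal exons was 0.341, 0.328, 0.289 and 0.332 in the embryonic samples and 0.242, 0.243 and 0.276 in the adult ones. In Nrxn3 it was 0.835, 0.803, 0.762 and 0.772 against 0.532, 0.594 and 0.747, with adult replicate 3 close to the embryonic samples. All adult ratios were below the embryonic ones in both genes. These ratios are a description and were not tested. The shared exons are also nearer the 3′ end. The log2 ratio of exon shares in the 3′ part to those in the 5′ part of the gene differed between the ages by 0.48 in Nrxn2 and 0.25 in Nrxn3, against a median of 0.00 over 3350 genes with at least 10 exon rows (quartiles -0.11 and 0.11).

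**Figure D4:**
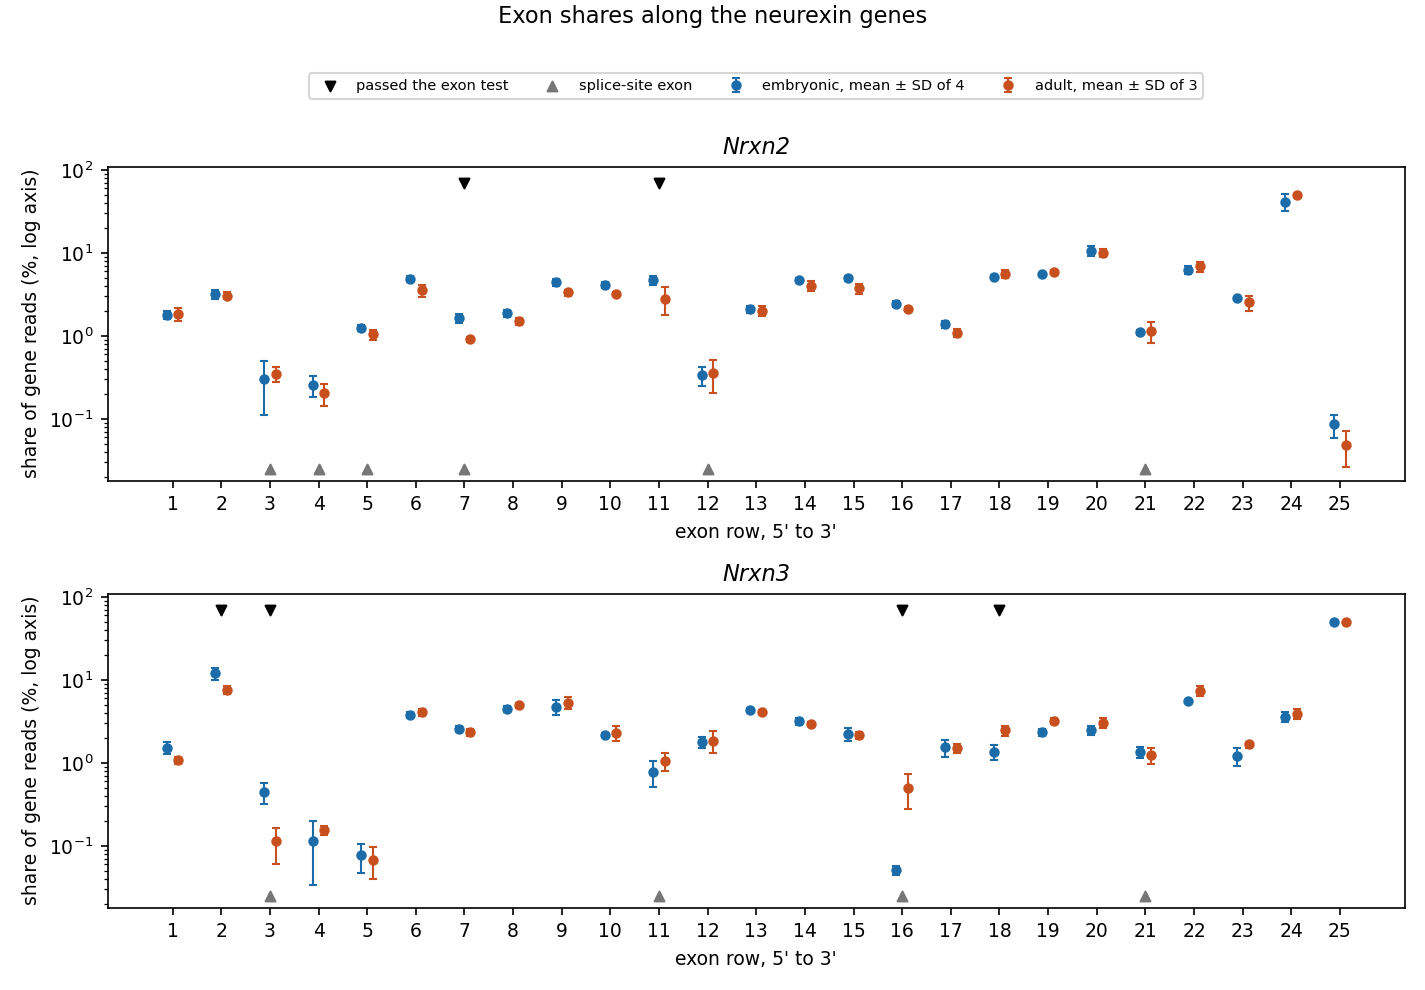
Share of gene reads (percent, log axis) in each exon row of Nrxn2 and Nrxn3 in 5′ to 3′ order, points for group means with SD, embryonic in blue (n = 4) and adult in orange (n = 3). Black marks show the 2 Nrxn2 and 4 Nrxn3 rows that passed diffSplice, and grey marks the splice-site exons; the widest gap is at row 16 of Nrxn3, the splice site 6 exon.

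Among the neuroligin exons, the 51-base exon of Nlgn2 at splice site A (mm9 start 69644065) gained share. It held 0.658, 0.637, 0.476 and 1.33% of Nlgn2 reads in the embryonic samples and 1.47, 1.54 and 1.15% in the adult ones. Embryonic replicate 4 lay above adult replicate 3, so the groups overlapped (diffSplice adjusted p = 0.00445, limma per exon adjusted p = 0.292). Without adult replicate 2 the diffSplice adjusted p was 0.0530. A 186-base Nlgn2 exon (mm9 start 69641520) lost share, from 3.92 ± 0.434% (SD, n = 4) to 3.09 ± 0.337% (SD, n = 3), without overlap (diffSplice adjusted p = 0.0184, limma per exon adjusted p = 0.286). That call was lost without embryonic replicate 2 (adjusted p = 0.0662) and without adult replicate 2 (adjusted p = 0.338).

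The remaining called row was a 43-base first exon of Nlgn1 (mm9 start 26052187), named after its values were seen. It held 0.592, at most 0.10, 0.327 and 0.340% in embryonic and 0.546, 0.935 and 0.752% in adult cortex, with at most 1 read in embryonic replicate 2 and 3 to 11 reads in the others, and the groups overlapped (diffSplice adjusted p = 0.0232). The 60-base Nlgn3 exon at splice site A held 1.89, 2.04, 2.08 and 1.92% against 2.17, 2.70 and 2.22%, which did not overlap but was not called (diffSplice adjusted p = 0.471). None of the exon rows of Lrrtm1 and Lrrtm2 was called, and in each of these genes 1 row held most reads. Its share is too coarse to give. Another row held 11.5 and 12.6% on average in embryonic and adult cortex in Lrrtm1, and 7.32 and 9.05% in Lrrtm2.

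The other genes of these complexes were read from the same gene-level test. Of 23 extracellular partners, 9 rose and 8 fell, against 35.8% and 33.9% of all tested genes, and the median difference was 0.02. C1ql2 and C1ql3, secreted C1q-like proteins that bind neurexin-3 forms, both rose. C1ql2 went from 0.348 ± 0.0893 to 10.2 ± 1.68 CPM, and C1ql3 from 5.58 ± 0.190 to 76.9 ± 9.84 CPM (SD, n = 4 and n = 3). Lphn2, a latrophilin, fell from 439.6 ± 21.3 to 106 ± 3.25 CPM. Thbs1, a thrombospondin, fell from 41.9 ± 4.22 to 3.97 ± 1.19 CPM.

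Of 20 cytoplasmic scaffolds, 16 rose and 3 fell, against 35.8% and 33.9% of all tested genes, with a median difference of 0.94. Lin7b, an adaptor protein, rose from 5.18 ± 0.207 to 48.6 ± 4.05 CPM (SD, n = 4 and n = 3; difference 3.15, limma adjusted p = 3.91e-12). Cask, which binds the neurexin tail, fell from 191 ± 12.1 to 91.6 ± 6.59 CPM, and Lin7c fell from 234 ± 25.5 to 83.7 ± 8.77 CPM. Dlg4 and Gphn, the scaffolds PSD-95 and gephyrin of excitatory and inhibitory synapses, were picked after their values were seen. Dlg4 rose by 1.58 and Gphn by 0.64 (limma adjusted p = 1.03e-09 and 2.36e-06).

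Of 27 other adhesion proteins and catenins, 12 rose and 9 fell, against 35.8% and 33.9% of all tested genes, with a median difference of 0.06. Slitrk4 and Ctnna3 had the largest rises (13.9 to 50.5 CPM and 0.339 to 2.11 CPM), and Lrfn4 and Ptprf the largest falls (94.0 to 42.4 CPM and 231 to 114 CPM). Of 18 splicing regulators, 5 rose and 13 fell, against the same 35.8% and 33.9%, with a median difference of -1.04. Mbnl2 and Mbnl1 rose most: Mbnl2 went from 18 ± 2.60 to 191 ± 22.5 CPM and Mbnl1 from 29.3 ± 3.19 to 92.7 ± 12.4 CPM (SD, n = 4 and n = 3). Srrm4, a regulator of neuronal microexons, fell from 208 ± 10.5 to 48.4 ± 2.93 CPM. Khdrbs2, known to act on neurexin splice site 4, fell from 18.1 ± 1.04 to 4.84 ± 0.642 CPM (limma adjusted p = 6.04e-09).

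For each gene, the tested gene with the most similar pattern was found by the root mean square difference of mean-centred values over the 7 samples. It was Ndufb2 for Nrxn2 (0.0348), Il17ra for Nrxn3 (0.0570), Dcun1d1 for Nlgn1 (0.0345), Zfand3 for Nlgn2 (0.0305) and Mrps30 for Nlgn3 (0.0314). It was 9530068E07Rik for Lrrtm1 (0.0420), Spred1 for Lrrtm3 (0.0425) and Cd47 for Lrrtm4 (0.0773). With 2 groups of samples, such likeness rests mainly on the size of the age difference.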

How the data were processed

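Messenger RNA of mouse cerebral cortex was measured in 4 embryonic and 3 adult samples. Per the submitters' processing notes, the tools were SAMtools 0.1.7a, HTSeq 0.5.3p3, Bowtie 0.12.7.0, TopHat 1.0.13 and CASAVA 1.7.1 (roles not stated), with the mm9 build. The gene values deposited by the authors are variance-stabilized on a log2-like scale. The exon values deposited by the authors are a score, per the file headers 1 over a ratio, also variance-stabilized. All 14 sample columns were used.

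Both tables were read as steps through whole numbers, from which gene reads were recovered. Over 99.8% of values lay within 0.1 of a whole number. The lowest 40 steps of each column were taken as whole, so part of this percent was fixed in advance. The exon number behaves as gene reads divided by exon reads: 97.0% of 89793 values that could show it were reached by a whole number of exon reads, against 21.4% with shifted gene counts. Shares are 100 divided by that number, and coarse where it is small. The limma intervals rest on the spread between samples of a group, and read numbers count sequenced reads, not molecules. Replicates of a group differed by a chi-square per gene of 4.83 to 17.7, so none was counted as a repeat.

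Genes were tested with limma 3.58.1 (R 4.3.3, trend) on the deposited log2-like values, leaving out genes at the lowest value in more than 3 samples, and exons with limma diffSplice, both two-sided with Benjamini-Hochberg adjustment at 0.05. Recovered reads gave CPM, exon shares, family shares and ratios, tested by exact permutation over 35 splits (scipy 1.17.1). The procedures were tested on simulated data. GENCODE M21 (GRCm38) gave lengths and identified 72 of 78 exon rows by their spacing, with no coordinate converted. Older gene symbols were matched through RefSeq synonyms.

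The genes, gene lists (extracellular partners, cytoplasmic scaffolds, other adhesion proteins, splicing regulators and cell markers) and tests were chosen with earlier results of these data known. From each list the 2 called genes with the largest difference in each direction were named, and from each member up to 3 called exons per direction whose groups did not overlap, beside all splice-site exons. The alternatives covered the scaling, filters, the values tested, the test and each replicate left out. The comparison of exons per base with flanking exons was added after seeing the data. Results for 1 list gene and 1 exon are not reported here. Amino acid sequences and the mm9 genome were not used here.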

Additional observations from a re-analysis of the deposited data

Results flagged for a closer look

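Of 37 groups of 4 embryonic values examined, 2 held 1 sample far from the other 3. Chance flags about 1 in 20 groups. The 18-base Nrxn2 exon at splice site 1 held 0.595% of the gene's reads in embryonic replicate 4 against 0.176 to 0.226% in the others, a gap of 0.881 of the group's range. The 60-base Nlgn3 exon at splice site A stood at 0.356 of its neighbouring rows in embryonic replicate 3 against 0.288 to 0.299 in the others, a gap of 0.848 of the range. Without embryonic replicate 4 the Nrxn2 exon passed diffSplice as a gain (adjusted p = 0.0483).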

How the results depend on the processing

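Depth limits the small exons most: several rest on under 20 reads a sample, and no and 1 read cannot be told apart there. The replicate numbers were not taken to pair the samples. Deviations of same-numbered samples correlated at 0.0088 to 0.0567, and those of other pairs, mostly negative, at -0.0475 to 0.0617. Correlations this small cannot show whether the numbers mark a pairing or a batch. With the replicate number as a block, 8006 genes were higher and 7549 lower against 8180 and 7736, and 2209 exons gained and 1792 lost share against 2313 and 1872. With limma per exon, 889 exons gained and 822 lost share, and 1 and 0 of the member exons. Leaving out each replicate gave 1417 to 3619 exons that gained and 1340 to 3178 that lost, of which 2 to 6 and 3 to 8 were member exons. With samples scaled to their medians, 1 member gene was lower, and 7001 of all genes were higher and 9047 lower. The Nlgn2 difference was -0.013 with voom on recovered reads, -0.18 with scaling and -0.031 with the block, and ranged from -0.051 to 0.047 over the left-out replicates. The Nlgn3 difference was -0.14 with scaling, and its share of family reads differed by -0.0054. For the 72-base Nrxn2 exon, the ratio to all other exons differed by -0.0021, log2 share by -0.062, and limma per exon gave -0.51, with -0.072 to 0.13 over left-out replicates. For the 30-base Nrxn2 exon, log2 share gave -0.13 and limma per exon -0.34. The causes were not tested.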
